A study of Mus musculus with 18 samples.

Results

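Osteopontin (OPN) was given to synovial fibroblasts that also received fibroblast growth factor 2 (FGF2), and their RNA was set against that of cells given FGF2 without OPN. The comparison takes 6 of the 18 libraries of the study, chosen by their labels: 3 of cells with 10 ng/mL FGF2 plus 50 ng/mL OPN and 3 of cells with 10 ng/mL FGF2, each for 3 days. All 15072 genes that passed a filter on low counts were compared, out of 24146 with at least 1 count. The cells of both groups were sorted from paws of wild-type mice without arthritis, which the labels call naive, and were stimulated in culture. Naive cells given 50 ng/mL OPN and naive unstimulated cells, with 3 libraries each, show what OPN did without FGF2. The other 6 libraries, from mice with serum-transfer-induced arthritis with or without OPN, entered the filter on low counts, the scaling of library sizes and the model's shared estimate of the spread. Their levels were not part of any comparison given here. The labels do not say whether the 3 libraries of a group came from separate mice, pools or cultures, so each p-value measures only the spread between these libraries, which may be technical. How the sort was gated, and how long unstimulated cells were cultured, is not given in the sources used.

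FGF2 is a growth factor that binds FGF receptors together with heparan sulphate chains on the cell surface. The receptors start the RAS and ERK kinase cascade, which raises ETS factors and cyclin D1 and also the Sprouty, Spred and Dusp proteins that damp the cascade. FGF2 is a mitogen for fibroblasts and is known to hold back genes of the mature matrix in several mesenchymal cells. Osteopontin, the product of Spp1, is a secreted phosphoprotein made by macrophages, bone cells and fibroblasts. It binds integrins, mainly those with the alpha-v chain, through an RGD motif, and the hyaluronan receptor CD44, and it is found at raised levels in inflamed joints.

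Library totals ran from 27527043 to 36336001 counts in the FGF2 plus OPN group and from 28784279 to 32160896 in the FGF2 group, and each of the 18 libraries had counts in 18067 to 19131 genes. Levels are CPM, that is counts divided by the TMM-scaled library size, given for replicates 1, 2 and 3 in that order, and a positive log2 fold change means higher with FGF2 plus OPN. A value after ± is the SE of the log2 fold change, or of the difference of log2 effects, printed before it. Many log2 fold changes, mostly of genes named in passing, are printed without an SE. A gene is called when its Benjamini-Hochberg adjusted p in edgeR's quasi-likelihood test is below 0.05. CPM values are not divided by gene length, so they serve to compare libraries and not genes. All 15 pan-fibroblast markers passed the filter, and their summed level was 33219.9 to 40500.5 CPM with FGF2 plus OPN and 25583.5 to 26693.6 CPM with FGF2. FGF2 replicate 2 stood farthest from the other libraries of its own group, at 0.416 log2 units as a root mean square over genes, while the other 17 libraries stood at 0.294 to 0.363. Results that it decides are given with and without it. In RNA from whole cultures, fewer cells of a kind and less RNA per cell cannot be told apart.

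The addition of OPN to FGF2 changed the level of most genes tested. Of 15072 genes, 8804 were called (58.4%), with 4108 higher (27.3%) and 4696 lower (31.2%) in cells with FGF2 plus OPN. The changes upward were larger: 1512 genes rose at least 2-fold (10.0%) and 1041 fell at least 2-fold (6.91%), and the median called change was 0.72 on the log2 scale among rises and -0.50 among falls. At a log2 change of 4 or more there were 113 rises and 44 falls. The median over all genes tested was -0.015. The libraries of both groups did not overlap for 9081 genes (60.3%; 28.3% higher and 31.9% lower), and the first principal component of the 6 libraries, with 79.3% of the variance, separated the groups. These shares are the background for every count below: a list of genes of which about 3 in 5 were called does not stand apart from the rest.

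The 12 largest rises came from genes of varied roles. All 12 were lower with FGF2 than in unstimulated naive cells, by log2 fold changes from -1.29 (Gdf10) to -9.04 (Ptx3). With both factors they stood from -2.79 (Ptx3) to 4.22 (Gdf10) against unstimulated cells, so a rise here need not exceed the unstimulated level. These values share libraries with the ranking. Lgr5, a receptor for R-spondins that marks Wnt-responsive cells, had 28.1, 30.1 and 34.3 CPM with FGF2 plus OPN, against 0.133, 0.297 and 0.727 CPM with FGF2, a log2 fold change of 6.27 ± 0.26. Igf1, insulin-like growth factor 1, had 33.5, 48.9 and 34.6 CPM with FGF2 plus OPN, against 0.933, 0.793 and 0.636 CPM with FGF2 (5.63 ± 0.29). Wnt16, a Wnt ligand, had 46.5, 54.9 and 50.4 CPM with FGF2 plus OPN, against 0.733, 1.19 and 0.818 CPM with FGF2 (5.79 ± 0.19). In each of these 3 genes the lowest library with both factors was over 10 times the highest with FGF2. The other 9 of the 12 largest rises were Kng1 (kininogen, 6.42), Steap4 (a metalloreductase, 6.28), Ptx3 (a long pentraxin, 6.25), Ggt5 (a gamma-glutamyltransferase, 6.13), Cxcl5 (a chemokine for neutrophils, 5.85), Gdf10 (a TGF-beta family ligand, 5.51), Aspn (asporin, 5.50), C4b (complement, 5.39) and Abi3bp (a matrix protein, 5.27). With FGF2, Kng1, Steap4, Lgr5, Ggt5 and Igf1 were under 1 CPM in every library, so the size of their rises rests on few reads. Steap4 had 0.0333, 0.264 and 0.121 CPM there. Without FGF2 replicate 2 the log2 fold change was 7.07 for Steap4 and 6.03 for C4b, and without FGF2 replicate 3 it was 7.13 for Lgr5. Kng1 and C4b have near-identical copies, Kng2 and C4a, so how the counting divided their reads is uncertain.

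The 12 largest falls were varied in role as well. All 12 were higher with FGF2 than in unstimulated naive cells, by log2 fold changes from 4.49 (Wnt7b) to 10.6 (Mmp10). With both factors they stood from -0.005 (Wnt7b) to 5.13 (Nwd2) against unstimulated cells. Here too the libraries are shared with the ranking. Mmp10, a stromelysin that cuts matrix proteoglycans, had 3.72, 2.86 and 2.91 CPM with FGF2 plus OPN, against 121, 204 and 119.9 CPM with FGF2, a log2 fold change of -5.54 ± 0.22. Cnr1, the cannabinoid receptor, had 2.39, 2.76 and 1.58 CPM with FGF2 plus OPN, against 69.1, 142 and 62.5 CPM with FGF2 (-5.34 ± 0.32). Nefm, a neurofilament chain, had 0.929, 0.665 and 0.853 CPM with FGF2 plus OPN, against 20.0, 22.01 and 18.5 CPM with FGF2 (-4.61 ± 0.22). None of these 3 genes overlapped between the groups, which the choice of the 12 required. Sema7a, a membrane-anchored semaphorin, was the fall among the 12 with the highest counts, at 43.8, 48.6 and 49.8 CPM with FGF2 plus OPN, against 732, 980.1 and 748 CPM with FGF2 (-4.11 ± 0.14). The remaining 8 were Tslp (-4.96), Nwd2 (-4.72), Wnt7b (-4.49), Dynap (-4.49), the plasminogen activator inhibitor Serpinb2 (-4.20), Gm49774 (-4.10), the adhesion receptor Sele (-4.09) and the potassium channel Kcnh1 (-4.03). Gm49774 (chr17:27545707-27556518, minus strand) overlaps Hmga1 (chr17:27556497-27563674, plus strand) only at its end. No source used here gives the strand setting of the counting, so reads in that short stretch cannot be assigned. Hmga1 also fell (-1.81). Without FGF2 replicate 2 the log2 fold change of Tslp was -4.24.

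**Figure D1:**
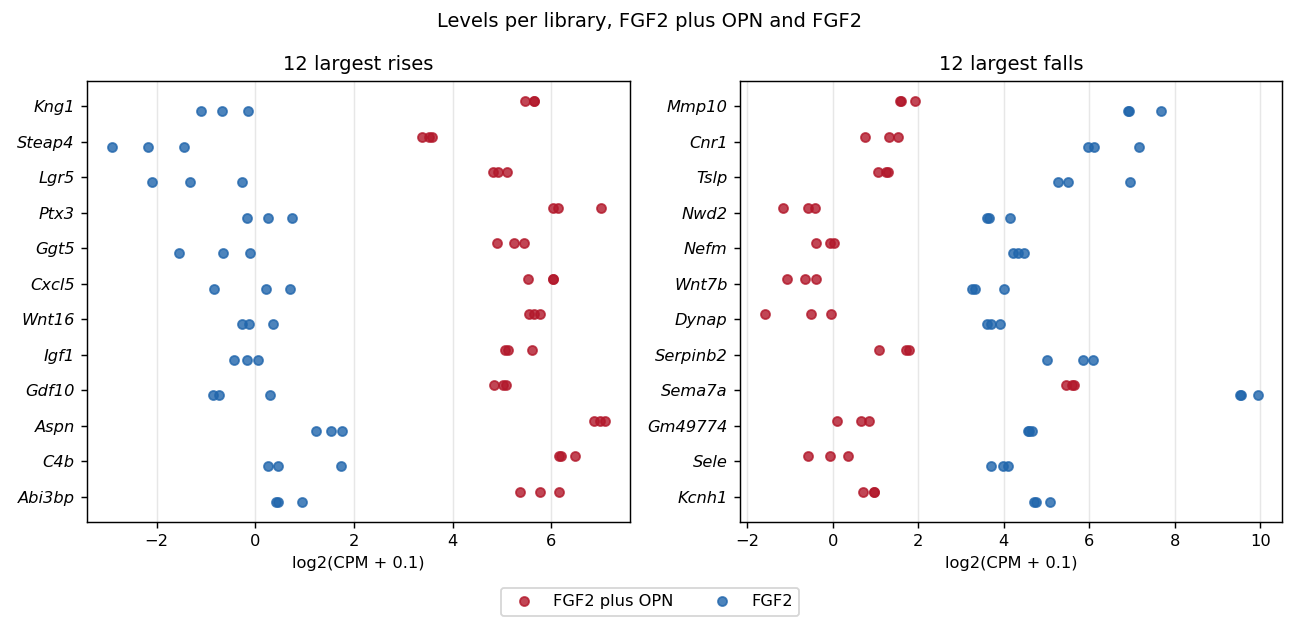
Levels of the 12 genes with the largest rises (left) and the 12 with the largest falls (right) on a log2(CPM + 0.1) axis, 1 point per library, with FGF2 plus OPN in red and FGF2 in blue. The red and blue points of a gene do not overlap in any of the 24 rows, which the choice of these genes required.

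Ranked by the difference of mean CPM, which favours genes with high counts, the rises were led by matrix genes. The log2 fold changes of the 8 largest gains ran from 0.41 (Bgn) to 4.30 (Comp). Fn1, fibronectin, had 14224, 16474 and 19531 CPM with FGF2 plus OPN, against 10198, 11865 and 10948 CPM with FGF2 (0.61 ± 0.11). Lox, the lysyl oxidase that crosslinks collagen and elastin, had 5483, 6349 and 6061 CPM with FGF2 plus OPN, against 1330.1, 942 and 1426 CPM with FGF2 (2.27 ± 0.12). Col1a1, the main chain of type I collagen, had 6894, 7469.8 and 9839.5 CPM with FGF2 plus OPN, against 4255, 3686 and 4259.9 CPM with FGF2 (0.99 ± 0.11). The groups of all 3 genes lay apart. Col3a1, Col1a2, Comp, Thbs1 and Bgn completed the 8 largest gains. The 8 largest losses by the same measure were Spp1, Pabpc1, Ank, Vim, Il1rl1, Hmga1, Col6a3 and Ccnd1. Pabpc1, the poly(A)-binding protein, had 2096, 2278 and 1797 CPM with FGF2 plus OPN, against 3855, 5028 and 3656 CPM with FGF2 (-1.02 ± 0.094). Ank, a membrane protein that exports pyrophosphate, had 628, 601 and 607 CPM with FGF2 plus OPN, against 2323, 2687 and 2327 CPM with FGF2 (-2.00 ± 0.10).

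The receptors through which OPN acts were mostly lower in the cells that received it. Of 12 tested genes of osteopontin and its receptors, 8 fell and 3 rose, with a median log2 fold change of -0.67. Itgb3, the beta-3 integrin chain that pairs with alpha-v, had 64.2, 56.8 and 64.8 CPM with FGF2 plus OPN, against 620.0, 632 and 616 CPM with FGF2 (-3.33 ± 0.078). Its unstimulated libraries had 29.2, 28.03 and 28.5 CPM. The levels of Itgb3 with both factors lay far below all FGF2 libraries. Cd44 had 314, 297 and 275 CPM with FGF2 plus OPN, against 882, 667 and 916 CPM with FGF2 (-1.48 ± 0.12), and Itgav, the alpha-v chain, had 214, 218 and 165 CPM with FGF2 plus OPN, against 361, 278 and 388 CPM with FGF2 (-0.78 ± 0.14). Other falls were Itga4 (-2.26), Itga5 of the fibronectin receptor (-1.03), Itga8 (-0.56) and Itgb1 (-0.44). Itgb8 (1.98), Itgb5 (1.07) and Itga9 (1.02), chains that also take part in OPN or RGD binding, rose. Spp1 itself had 11734, 10355 and 12168 CPM with FGF2 plus OPN, against 16579.9, 28019.8 and 16074 CPM with FGF2 (-0.82 ± 0.15), so the cells' own OPN transcript fell where the protein was added to FGF2. FGF2 replicate 2 had the highest Spp1 level of the 6, and without it the log2 fold change was -0.52. Spp1 with both factors was still above unstimulated cells (log2 fold change 3.01). OPN without FGF2 did not change the Spp1 call (0.072 ± 0.15 against unstimulated cells, edgeR adjusted p = 0.744, not called). The fall of Itga8 was not called without FGF2 replicate 2 (-0.29, edgeR adjusted p = 0.133).

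Integrins that bind laminin and collagen, and adhesion adaptors, also changed. Of 17 tested, 10 fell and 5 rose (median -0.46). The collagen-binding chain Itga2 had 9.27, 8.34 and 9.35 CPM with FGF2 plus OPN, against 112, 133 and 120.1 CPM with FGF2 (-3.76 ± 0.10). The laminin-binding chain Itga6 had 119.9, 92.2 and 101 CPM with FGF2 plus OPN, against 664, 701 and 662 CPM with FGF2 (-2.69 ± 0.17). Itga11, the collagen-binding chain of fibroblasts, went the other way, with 64.3, 85.9 and 104 CPM with FGF2 plus OPN, against 9.23, 6.38 and 10.8 CPM with FGF2 (3.26 ± 0.18). Paxillin (Pxn, -0.87), talin 1 (Tln1, -0.46) and focal adhesion kinase (Ptk2, -0.54), which couple integrins to actin and to signalling, fell by less than 2-fold.

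Most transcripts listed here as raised by ERK signalling were lower when OPN was added to FGF2, while several early response genes, given further on, rose. Of 7 tested Sprouty and Spred genes, 6 fell and 1 rose, with a median of -1.38. Spry4 had 9.97, 7.55 and 8.97 CPM with FGF2 plus OPN, against 73.1, 91.2 and 67.0 CPM with FGF2 (-3.12 ± 0.14). Spry2 had 41.2, 42.4 and 46.7 CPM with FGF2 plus OPN, against 119, 113 and 108 CPM with FGF2 (-1.38 ± 0.065). For both the groups lay apart. Spred1 (-1.66), Spred3 (-1.42), Spred2 (-1.08) and Il17rd, the Sef inhibitor (-0.53), fell as well, and Spry1 rose (0.92). Among 12 Dusp phosphatases, which remove phosphate from MAP kinases, 10 fell and none rose in edgeR (median -1.02). Wherever none of a list's members is said to rise or fall here, the count was also 0 at an unadjusted p below 0.05 and in DESeq2, except that 1 clock gene was lower at an unadjusted p below 0.05. Dusp6, the phosphatase specific for ERK, had 50.9, 48.0 and 57.2 CPM with FGF2 plus OPN, against 237, 293 and 221 CPM with FGF2 (-2.27 ± 0.15). Dusp5 (-2.84), Dusp9 (-2.67) and Dusp4 (-2.31) fell by over 4-fold.

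Of 17 ETS factors and other ERK targets, 16 fell and 1 rose (median -1.06). Etv4, an ETS factor switched on by FGF receptors, had 19.3, 15.4 and 18.9 CPM with FGF2 plus OPN, against 114, 120.3 and 119 CPM with FGF2 (-2.72 ± 0.17). Ccnd1, cyclin D1, had 255, 207 and 231 CPM with FGF2 plus OPN, against 1451, 1489.8 and 1462 CPM with FGF2 (-2.67 ± 0.13). Hmga2, a chromatin protein of growing mesenchyme, had 281, 240.2 and 242 CPM with FGF2 plus OPN, against 1098, 1154 and 1091 CPM with FGF2 (-2.13 ± 0.19). In all 3 the highest library with both factors lay below the lowest with FGF2. Lif (-2.12), Sh2b3 (-1.91), Fosl1 (-1.28), Etv1 (-1.06) and Etv5 (-0.84) fell, Myc fell by less (-0.53), and Ets2 rose (0.35). Without FGF2 the effect of OPN was mixed: 4 of these 17 genes rose, among them Hmga2 (1.43), and 6 fell. Of the 7 Sprouty and Spred genes 1 rose without FGF2, Spry4 (0.72), and 1 fell.

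The FGF receptors did not fall with their targets. Of 10 tested receptors, coreceptors and docking proteins, 8 rose and none fell (median 0.36). Fgfr1 had 459, 471 and 472 CPM with FGF2 plus OPN, against 479.9, 505 and 469 CPM with FGF2, and the groups overlapped (-0.052 ± 0.051, edgeR adjusted p = 0.396). Fgfr2 had 55.9, 67.7 and 61.0 CPM with FGF2 plus OPN, against 8.07, 7.47 and 9.03 CPM with FGF2 (2.91 ± 0.12). Fgfr3 was also higher (2.31), as were the heparan sulphate carriers Sdc4 (0.84) and Sdc2 (0.73). Among 10 FGF ligands, 5 rose and 4 fell. Fgf2 itself had 276, 267 and 226 CPM with FGF2 plus OPN, against 433, 393 and 446 CPM with FGF2 (-0.73 ± 0.18), and the epithelial growth factor Fgf7 had 141, 146 and 163 CPM with FGF2 plus OPN, against 75.1, 65.5 and 74.1 CPM with FGF2 (1.06 ± 0.074).

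Early response genes gave more rises than falls. Of 19 immediate early factors, 11 rose and 4 fell, or 2 in a fit on the 6 libraries alone (median 0.65). Fos, a subunit of the AP-1 factor, had 358, 409.8 and 425 CPM with FGF2 plus OPN, against 118, 91.9 and 124 CPM with FGF2 (1.84 ± 0.093). Egr1, a zinc finger factor induced within minutes of stimulation, had 429.6, 459.8 and 436 CPM with FGF2 plus OPN, against 207, 206 and 206 CPM with FGF2 (1.10 ± 0.055). Zfp36, which speeds the decay of cytokine mRNAs, had 231, 261 and 250.4 CPM with FGF2 plus OPN, against 67.8, 67.0 and 61.3 CPM with FGF2 (1.92 ± 0.064). All libraries with both factors lay above all FGF2 libraries for these 3 genes. Fosl2 (1.63), Fosb (1.13) and Junb (0.96) rose as well. Egr3 had 22.2, 23.04 and 23.2 CPM with FGF2 plus OPN, against 80.2, 76.6 and 67.7 CPM with FGF2 (-1.71 ± 0.081). Klf6 (-0.38), Jun (-0.27) and Atf3 (-0.39) were the other falls; Jun was not called without FGF2 replicate 2 (-0.15, adjusted p 0.056), and Atf3 was not called without FGF2 plus OPN replicate 1 (-0.27), replicate 2 (-0.39) or FGF2 replicate 2 (-0.35). Cells given OPN without FGF2 had lower early gene levels than unstimulated cells: 18 of the same 19 fell, and Fos had 25.9, 23.5 and 22.5 CPM with OPN, against 326, 306 and 315 CPM in unstimulated cells (-3.72 ± 0.10).

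**Figure D2:**
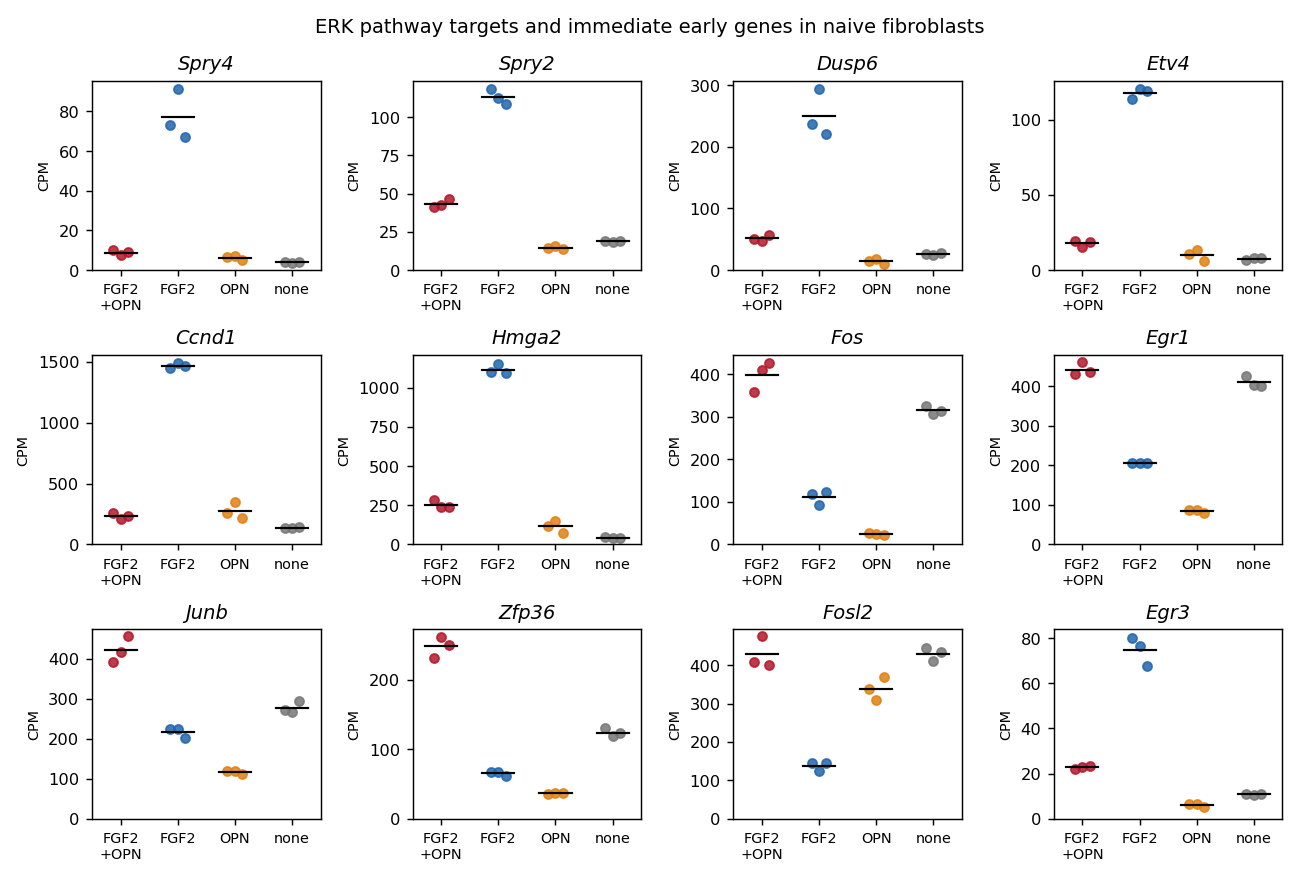
CPM per library of 12 ERK targets and early genes, with 1 panel per gene, a linear axis from 0, and the groups FGF2 plus OPN, FGF2, OPN and unstimulated (none) from left to right. Points are libraries and the black bar is the mean of 3. In Spry4, Spry2, Dusp6, Etv4, Ccnd1, Hmga2 and Egr3 all libraries with FGF2 plus OPN lie below those with FGF2, and in Fos, Egr1, Junb, Zfp36 and Fosl2 they lie above.

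Genes of DNA replication and division were lower throughout with OPN. Of 31 S-phase genes 30 fell and none rose, with a median of -1.07, and of 28 mitosis genes all 28 fell, with a median of -1.13, beside 31.2% of all genes tested. Mki67, a marker of cycling cells, had 55.9, 49.0 and 42.3 CPM with FGF2 plus OPN, against 118, 90.4 and 119 CPM with FGF2 (-1.15 ± 0.092). Mcm2, a subunit of the replicative helicase, had 26.4, 22.97 and 30.3 CPM with FGF2 plus OPN, against 65.5, 53.6 and 69.9 CPM with FGF2 (-1.25 ± 0.10). Top2a, the topoisomerase of chromosome segregation, had 94.1, 73.8 and 83.5 CPM with FGF2 plus OPN, against 209, 154 and 215 CPM with FGF2 (-1.200 ± 0.10). The groups did not overlap in any of the 3. The range over the 59 genes of both lists ran from Cdt1 (-1.80) to Rfc3 (-0.16), the one member that missed the threshold. With OPN and without FGF2 the change was smaller, with 5 S-phase genes higher and 5 lower and 5 mitosis genes lower. Among D cyclins and CDK inhibitors, Cdk6 (-1.77) and Ccnd2 (-0.60) fell beside Ccnd1, and the inhibitor Cdkn1c had 5.88, 5.69 and 5.40 CPM with FGF2 plus OPN, against 0.567, 1.19 and 0.787 CPM with FGF2 (2.73 ± 0.21).

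Of 13 metalloproteinases tested, 8 rose and 3 fell. The falls were the stromelysins Mmp10 and Mmp3 and the collagenase Mmp13, enzymes known as inducible in arthritic synovium. Mmp3 had 185, 186 and 256 CPM with FGF2 plus OPN, against 808, 1795 and 735 CPM with FGF2 (-2.41 ± 0.29). Mmp13 had 75.1, 88.0 and 94.7 CPM with FGF2 plus OPN, against 346, 464 and 362 CPM with FGF2 (-2.18 ± 0.33). FGF2 replicate 2 was the highest library for all 3, and without it the log2 fold changes were -5.24 for Mmp10, -1.89 for Mmp3 and -2.04 for Mmp13. The 8 that rose included gelatinase A, Mmp2, with 1358, 1440.0 and 1437 CPM with FGF2 plus OPN, against 656, 975 and 622 CPM with FGF2 (0.91 ± 0.12), the stromelysin Mmp11 (1.90), Mmp23 (1.05) and Mmp16 (1.03).

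The 3 fallen genes lie close together on chromosome 9, and the promoter of each holds 1 AP-1 motif. The motif searched was TGANTCA, which reads the same on both strands, in both strands of the RefSeq window from 250 bases before to 50 bases after each start (build GRCm38.p6). It was in 8.97% of 27025 genes with such a window and in 6.63% of 11388 genes tested, and in 3 of the 8 metalloproteinases with a window, a set added to the search after its values were seen. Among the 12 largest falls it was in 4 of 7 genes with a window (Mmp10, Nwd2, Serpinb2 and Sele), and among the 12 largest rises in 1 of 6 (Igf1). It was also in 5 of 19 interferon response genes with a window (Ifit3, Rsad2, Xaf1, Gbp2 and Ifi35), a list of which most members rose, so matches were not limited to genes that fell. The 250 bases before each start are shown with the motif in capitals because these are the 3 metalloproteinase genes of the list that fell; the motif begins 46, 63 and 35 bases before the start in Mmp3, Mmp10 and Mmp13. A match describes the letters and does not show binding. All 3 genes are on the plus strand, at chr9:7445572-7445821 for Mmp3, chr9:7502092-7502341 for Mmp10 and chr9:7272264-7272513 for Mmp13.
Mmp3: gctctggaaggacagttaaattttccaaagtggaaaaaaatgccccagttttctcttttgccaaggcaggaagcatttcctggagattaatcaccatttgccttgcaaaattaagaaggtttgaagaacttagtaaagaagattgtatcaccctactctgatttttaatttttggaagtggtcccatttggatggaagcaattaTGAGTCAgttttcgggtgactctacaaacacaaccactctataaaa
Mmp10: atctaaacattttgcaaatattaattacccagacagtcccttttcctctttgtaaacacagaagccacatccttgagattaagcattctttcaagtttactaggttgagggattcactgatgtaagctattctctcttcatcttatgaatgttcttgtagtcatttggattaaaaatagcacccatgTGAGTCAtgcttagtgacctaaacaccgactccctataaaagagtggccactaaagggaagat
Mmp13: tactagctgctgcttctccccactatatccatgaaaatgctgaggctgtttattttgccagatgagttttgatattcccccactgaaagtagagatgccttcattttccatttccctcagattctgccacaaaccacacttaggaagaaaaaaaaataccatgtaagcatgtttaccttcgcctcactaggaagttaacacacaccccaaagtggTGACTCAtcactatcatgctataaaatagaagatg

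Other proteases and their inhibitors moved in both directions. Plau, urokinase, which activates plasminogen, had 118, 134 and 167 CPM with FGF2 plus OPN, against 353, 477 and 342 CPM with FGF2 (-1.49 ± 0.12). Its receptor Plaur had 19.9, 17.99 and 25.3 CPM with FGF2 plus OPN, against 130.4, 113 and 139 CPM with FGF2 (-2.60 ± 0.11). With Serpinb2 these were the 3 falls among 7 genes of the plasminogen system. Of 19 Adam, Adamts and Timp genes, 12 rose and 5 fell, or 3 in a fit on the 6 libraries alone (median 0.33). The aggrecan-cutting protease Adamts5 had 119, 132 and 134 CPM with FGF2 plus OPN, against 25.6, 21.5 and 26.1 CPM with FGF2 (2.40 ± 0.10), and Adamts9 (2.84), Adamts2, which trims procollagen (1.58), and the metalloproteinase inhibitor Timp3 (0.67) rose. Adam19 (-1.39) and Adam8 (-1.21) fell.

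Genes of the structural matrix rose together. Of 17 fibrillar and associated collagens 15 rose and 1 fell, with a median of 1.10, beside 27.3% of all genes tested that rose. Col3a1, type III collagen, had 5430.2, 6399.6 and 6481 CPM with FGF2 plus OPN, against 1969, 3289.6 and 1782 CPM with FGF2 (1.38 ± 0.20). Col12a1, which links fibrils to the surrounding matrix, had 311, 383 and 585 CPM with FGF2 plus OPN, against 129.6, 78.2 and 154 CPM with FGF2 (1.82 ± 0.25). Col14a1, a related collagen, had 25.9, 27.4 and 28.4 CPM with FGF2 plus OPN, against 2.90, 3.67 and 2.97 CPM with FGF2 (3.10 ± 0.34). The groups did not overlap in these genes. The exception was Col6a3, a chain of the microfibrillar type VI collagen, with 1076, 1137 and 1175 CPM with FGF2 plus OPN, against 2328, 2427 and 2430.0 CPM with FGF2 (-1.08 ± 0.080), while its partner chains Col6a1 (1.04) and Col6a2 (1.37) rose. Of 18 enzymes that modify or crosslink collagen, 12 rose and 2 fell, or 4 without FGF2 replicate 2. Beside Lox, the prolyl hydroxylases P4ha3 (1.26) and P4ha2 (1.196) and the lysyl hydroxylase Plod2 (0.92) rose, and Adamts14 (-2.67) and Loxl3 (-0.88) fell.

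The small leucine-rich proteoglycans, which coat collagen fibrils and set their width, rose by more. Of 12 tested, 11 rose and none fell, with a median of 2.30. Aspn had 117, 136 and 127 CPM with FGF2 plus OPN, against 2.80, 2.247 and 3.30 CPM with FGF2 (5.50 ± 0.16). Ogn, osteoglycin, had 259, 319.8 and 277 CPM with FGF2 plus OPN, against 9.37, 10.1 and 10.4 CPM with FGF2 (4.84 ± 0.11). Prelp had 69.6, 84.8 and 98.9 CPM with FGF2 plus OPN, against 7.07, 7.04 and 6.45 CPM with FGF2 (3.62 ± 0.13). The lowest library with both factors exceeded the highest FGF2 library in each. Decorin (Dcn) had 555, 619 and 716 CPM with FGF2 plus OPN, against 143, 448 and 132 CPM with FGF2 (1.39 ± 0.39), and lumican (Lum) 318, 377 and 397 CPM with FGF2 plus OPN, against 49.7, 204 and 45.5 CPM with FGF2 (1.87 ± 0.48). FGF2 replicate 2 was far above the other FGF2 libraries for both; without it the log2 fold changes were 2.19 for Dcn and 2.93 for Lum, and a fit on the 6 libraries alone called neither (edgeR adjusted p = 0.0785 for Dcn and 0.0652 for Lum).

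Elastic fibre genes (12 of 17 rose and 3 fell, median 1.07) and matrix glycoproteins (12 of 20 rose and 3 fell, median 0.64) gave more rises than falls. Emilin1, a glycoprotein of elastic fibres, had 517, 546 and 575 CPM with FGF2 plus OPN, against 197, 215 and 207 CPM with FGF2 (1.40 ± 0.065). Fbln1, fibulin 1, had 198, 215 and 221 CPM with FGF2 plus OPN, against 61.9, 80.0 and 55.6 CPM with FGF2 (1.68 ± 0.11). Ccn5, a secreted CCN protein, had 582, 651 and 755 CPM with FGF2 plus OPN, against 20.2, 26.4 and 18.8 CPM with FGF2 (4.93 ± 0.12), the largest change among the glycoproteins. Vcan, versican, which binds hyaluronan, rose (1.85), as did the fibulin Fbln5 (1.22) and the thrombospondins Thbs4 (1.94), Thbs3 (1.93) and Thbs1 (1.00). Tenascin C (Tnc) had 526, 541 and 639.6 CPM with FGF2 plus OPN, against 1469, 1347 and 1676 CPM with FGF2 (-1.40 ± 0.080), and Npnt fell too (-1.42). Ccn3 was the other fall (-0.91), not called without FGF2 replicate 2 (-0.30), FGF2 plus OPN replicate 1 (-0.90) or replicate 3 (-0.89). Basement membrane genes were split, with 7 of 21 higher and 10 lower: Lama4 (1.67) and Nid2 (1.41) rose, while Nid1 (-0.93), Col4a1 (-0.57) and Col4a2 (-0.53) fell.

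Cartilage genes were mostly higher. Of 18 tested, 12 rose and 3 fell (median 1.76). Comp, the cartilage oligomeric matrix protein, had 1522, 1548 and 1967 CPM with FGF2 plus OPN, against 100.3, 59.7 and 94.9 CPM with FGF2 (4.30 ± 0.16). Cilp had 44.0, 62.1 and 63.3 CPM with FGF2 plus OPN, against 6.57, 10.5 and 7.93 CPM with FGF2 (2.76 ± 0.18), and Acan, aggrecan, had 18.5, 16.0 and 23.2 CPM with FGF2 plus OPN, against 5.90, 4.46 and 6.21 CPM with FGF2 (1.80 ± 0.20). Prg4, the joint lubricant lubricin, had 1723, 2042 and 2108 CPM with FGF2 plus OPN, against 951, 1310.5 and 963 CPM with FGF2 (0.87 ± 0.11). The link protein Hapln1 (-1.37) and the hypertrophic cartilage collagen Col10a1 (-0.72) fell. Of 14 bone genes 6 rose and 4 fell, and Tnfsf11, the RANKL cytokine that drives osteoclasts, had 17.3, 24.0 and 26.2 CPM with FGF2 plus OPN, against 4.40, 4.26 and 5.03 CPM with FGF2 (2.30 ± 0.20).

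**Figure D3:**
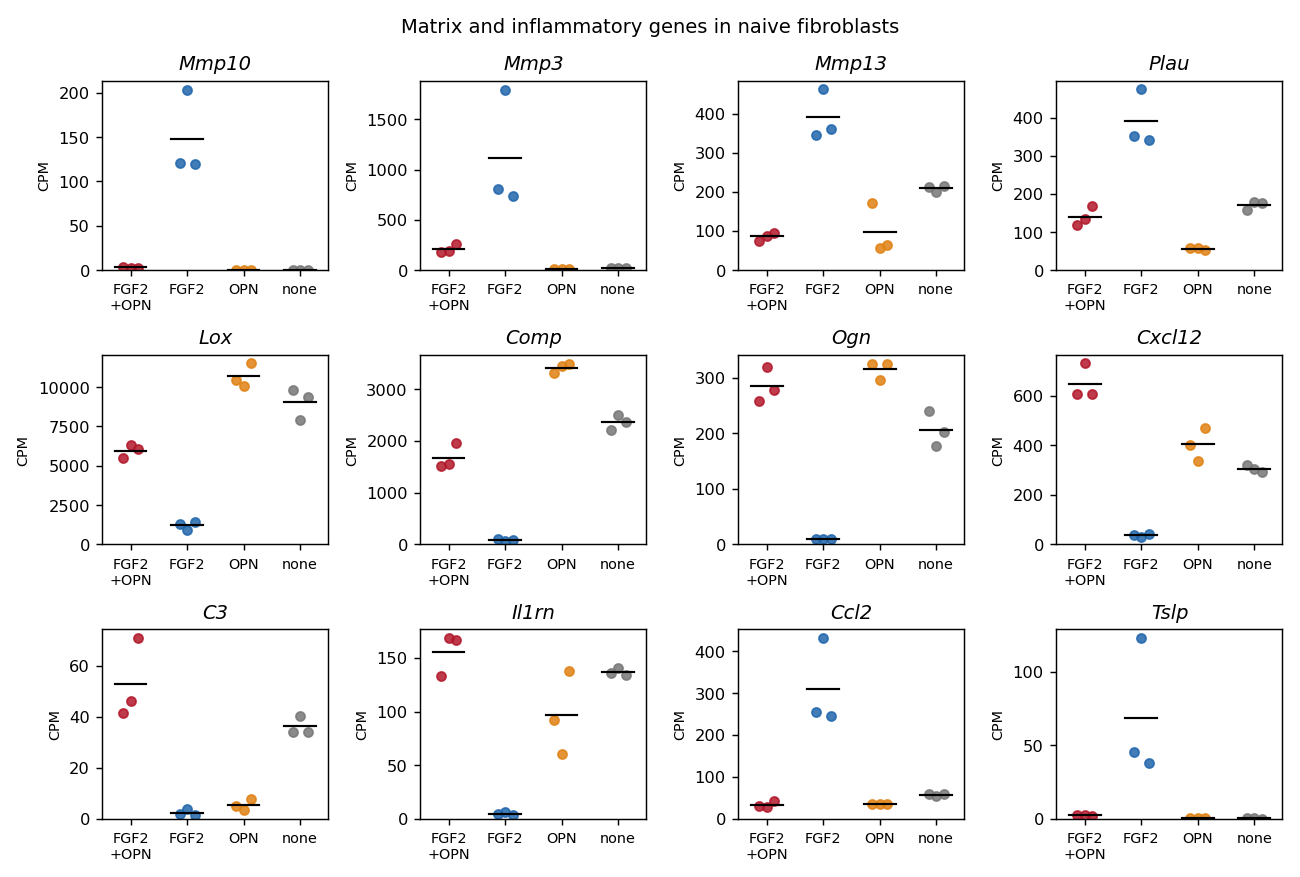
CPM per library of 12 matrix, protease and inflammatory genes on linear axes from 0, with FGF2 plus OPN, FGF2, OPN and unstimulated (none) from left to right, points for libraries and a black bar for the mean of 3. Mmp10, Mmp3, Mmp13, Plau, Ccl2 and Tslp are lower with FGF2 plus OPN than with FGF2 in every library, and Lox, Comp, Ogn, Cxcl12, C3 and Il1rn are higher in every library.

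Acute-phase genes showed the highest median of the lists. All 10 tested rose, with a median of 4.37. C3, the central complement protein, had 41.3, 46.3 and 70.9 CPM with FGF2 plus OPN, against 1.80, 3.73 and 1.27 CPM with FGF2 (4.55 ± 0.37). Hp, haptoglobin, had 21.2, 21.7 and 31.5 CPM with FGF2 plus OPN, against 0.833, 1.52 and 0.697 CPM with FGF2 (4.61 ± 0.22). Ptx3 had 65.5, 70.1 and 128 CPM with FGF2 plus OPN, against 1.57, 0.793 and 1.09 CPM with FGF2 (6.25 ± 0.42). None of these groups overlapped, and FGF2 plus OPN replicate 3 was the highest library for each. Socs3, the feedback inhibitor of the interleukin 6 pathway, had 129.9, 147 and 177 CPM with FGF2 plus OPN, against 65.1, 61.0 and 58.8 CPM with FGF2 (1.29 ± 0.11). Lcn2 had 1.86, 2.06 and 8.78 CPM with FGF2 plus OPN, against 0.233, 0.430 and 0.0303 CPM with FGF2, and Saa3 had 0.553, 0.366 and 11.1 CPM with FGF2 plus OPN, against 0.0333, 0.165 and 0.151 CPM with FGF2, so that replicate 3 made most of the mean of both. Without that library the log2 fold change was 3.09 for Lcn2, against 4.19 with it, and 1.95 for Saa3, against 5.03 with it, and without FGF2 replicate 2 it was 5.0 for Lcn2. A fit on the 6 libraries alone did not call Saa3 (edgeR adjusted p = 0.082). Without FGF2, OPN went the other way: 7 of the same 10 fell, and C3 had 4.97, 3.58 and 7.76 CPM with OPN, against 34.0, 40.4 and 34.1 CPM in unstimulated cells (-2.76 ± 0.32).

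The complement genes other than C3 were mostly higher, with 13 of 16 that rose and 1 that fell (median 1.26). C4b had 73.7, 89.3 and 70.8 CPM with FGF2 plus OPN, against 1.10, 3.24 and 1.27 CPM with FGF2 (5.39 ± 0.43). C1s1, a protease of the first component, had 97.2, 107 and 109 CPM with FGF2 plus OPN, against 15.6, 28.4 and 14.7 CPM with FGF2 (2.42 ± 0.19). The inhibitor Serping1 had 69.7, 79.8 and 83.7 CPM with FGF2 plus OPN, against 8.17, 12.8 and 10.0 CPM with FGF2 (2.91 ± 0.23), so activators and inhibitors of the cascade rose together. C5ar1 fell (-3.97).

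Of 11 CXC chemokines and receptors 9 rose and 2 fell (median 1.77); without FGF2 replicate 2 the fall was 1, and a fit on the 6 libraries alone called neither fall. Of 10 CC chemokines 2 rose, or 1 in the fit on 6 libraries, 3 fell and 5 did not pass (median 0.15). The difference between these families was not tested. Cxcl12, which retains lymphocytes and stem cells, had 608, 729.6 and 606 CPM with FGF2 plus OPN, against 38.7, 30.8 and 43.9 CPM with FGF2 (4.10 ± 0.13). Cxcl5 had 46.1, 65.1 and 66.0 CPM with FGF2 plus OPN, against 1.53, 0.463 and 1.06 CPM with FGF2 (5.85 ± 0.39). Ccl2, which recruits monocytes, had 29.5, 29.0 and 43.2 CPM with FGF2 plus OPN, against 254, 432 and 245 CPM with FGF2 (-3.20 ± 0.20). The groups of all 3 genes lay apart. Cxcl14 (1.77), the scavenging receptor Ackr3 (1.99) and Ccl9 (3.10) rose, and Ccl7 (-1.44) and Cx3cl1 (-0.77) fell.

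Of 19 cytokines, receptors and colony stimulating factors, 7 rose and 9 fell. Tslp, an epithelial and stromal cytokine of type 2 immunity, had 2.26, 2.36 and 1.99 CPM with FGF2 plus OPN, against 45.3, 123 and 38.2 CPM with FGF2 (-4.96 ± 0.41). Il33, an alarmin, had 8.94, 9.04 and 8.43 CPM with FGF2 plus OPN, against 20.3, 102 and 17.4 CPM with FGF2 (-2.40 ± 0.53), and its receptor Il1rl1 had 707, 734 and 745 CPM with FGF2 plus OPN, against 1987, 2295 and 1964 CPM with FGF2 (-1.51 ± 0.062). In all 3 genes the groups lay apart. Csf1, the macrophage growth factor, had 1166, 1096 and 1260.1 CPM with FGF2 plus OPN, against 1941, 1408 and 2087 CPM with FGF2 (-0.63 ± 0.10). Among the rises, Il1rn, the secreted antagonist of interleukin 1, had 133, 169 and 166 CPM with FGF2 plus OPN, against 4.73, 6.44 and 3.33 CPM with FGF2 (5.02 ± 0.31). Il6st, the signalling chain shared by interleukin 6 cytokines, had 1258, 1454 and 1439 CPM with FGF2 plus OPN, against 235, 247 and 242 CPM with FGF2 (2.52 ± 0.092), and Osmr, which pairs with it, rose as well (1.87). Il6 itself had low counts, 1.08, 2.16 and 2.12 CPM with FGF2 plus OPN, against 0.600, 0.198 and 0.182 CPM with FGF2 (2.43 ± 0.36). Without FGF2 replicate 2 the log2 fold change was -4.24 for Tslp and -1.10 for Il33, a fit on the 6 libraries alone did not call Il33 (edgeR adjusted p = 0.0632), and without FGF2 replicate 1 it was 3.19 for Il6.

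Among 15 NF-kappaB feedback and adhesion targets 8 rose and 4 fell (median 0.33), or 2 without FGF2 plus OPN replicate 3 or FGF2 replicate 2. Bcl3 was the largest rise, with 30.0, 37.97 and 32.1 CPM with FGF2 plus OPN, against 1.83, 4.33 and 1.94 CPM with FGF2 (3.63 ± 0.22), and the adhesion molecules Icam1 (1.51) and Vcam1 (0.85) rose. Of 13 prostaglandin genes, 4 rose and 5 fell. The synthases Ptgs2 (-1.05), Ptgs1 (-1.41) and Ptges (-1.77) fell, while the receptors Ptger4 (1.55) and Ptgfr (1.99) and the degrading enzyme Hpgd (3.84) rose. Ptges had 78.2, 69.9 and 82.8 CPM with FGF2 plus OPN, against 220.2, 351 and 217 CPM with FGF2.

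Interferon response genes were higher with OPN. Of 23 tested, 20 rose and 1 fell, with a median of 1.22. Ifit1, which binds viral RNA, had 5.68, 13.9 and 7.64 CPM with FGF2 plus OPN, against 1.67, 1.98 and 1.24 CPM with FGF2 (2.47 ± 0.31). Gbp3, a guanylate-binding protein, had 4.62, 10.3 and 4.86 CPM with FGF2 plus OPN, against 1.10, 1.75 and 1.42 CPM with FGF2 (2.20 ± 0.29). The groups did not overlap in these genes. Isg15, a ubiquitin-like protein, rose (1.86), and Ifit2 was the one fall (-0.25), not called without FGF2 plus OPN replicate 3 (-0.17), FGF2 replicate 1 (-0.22) or FGF2 replicate 3 (-0.26), nor in a fit on the 6 libraries alone. Of 17 antigen presentation genes, 15 rose and none fell (median 0.85), among them the peptide transporter Tap1, with 21.8, 25.3 and 20.4 CPM with FGF2 plus OPN, against 7.999, 9.82 and 9.84 CPM with FGF2 (1.28 ± 0.10). Gbp and H2 genes have close paralogs, between which reads can be split by the counting.

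The interferon-stimulated response element, searched as GAAA, any 2 bases and GAAA on both strands of the same 300-base windows, was in 11 of the 19 interferon genes with a window, in 3.99% of 27025 genes and in 3.61% of 11388 genes tested. The genes with a match were Stat2, Isg15, Ifit1, Ifit3, Ifih1, Oas1a, Rsad2, Bst2, Gbp2, Gbp3 and Gbp7. The 250 bases before the start are shown for the 3 of them with the largest rises, with matches in capitals. They begin 104 and 85 bases before the start in Ifit1 (chr19:34640639-34640888, plus strand), 78, 72 and 66 in Isg15 (chr4:156200819-156201068, minus strand), and 45 and 39 in Gbp3 (chr3:142559794-142560043, plus strand). Overlapping matches form 1 run of capitals.
Ifit1: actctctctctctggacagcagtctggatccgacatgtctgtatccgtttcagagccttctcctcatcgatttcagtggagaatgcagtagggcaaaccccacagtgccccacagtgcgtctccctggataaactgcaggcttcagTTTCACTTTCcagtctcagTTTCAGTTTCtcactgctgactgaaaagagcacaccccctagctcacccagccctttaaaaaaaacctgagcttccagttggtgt
Isg15: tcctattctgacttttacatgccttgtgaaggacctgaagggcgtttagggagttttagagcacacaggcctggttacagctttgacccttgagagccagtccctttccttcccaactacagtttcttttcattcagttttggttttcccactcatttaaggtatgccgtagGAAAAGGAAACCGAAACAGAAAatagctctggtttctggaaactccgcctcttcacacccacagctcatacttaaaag
Gbp3: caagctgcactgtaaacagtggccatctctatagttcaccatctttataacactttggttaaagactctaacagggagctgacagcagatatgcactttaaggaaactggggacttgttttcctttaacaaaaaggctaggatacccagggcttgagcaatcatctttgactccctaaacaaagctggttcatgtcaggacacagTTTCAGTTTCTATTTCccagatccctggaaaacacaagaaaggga

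Wnt genes were mostly higher. Of 26 tested, 18 rose and 5 fell (median 1.16); without FGF2 plus OPN replicate 2, replicate 3 or FGF2 replicate 2 the falls were 3. The secreted Wnt antagonist Sfrp1 had 159, 194 and 245 CPM with FGF2 plus OPN, against 13.5, 15.1 and 12.7 CPM with FGF2 (3.85 ± 0.35). Dkk3 had 412, 429.9 and 445 CPM with FGF2 plus OPN, against 64.2, 105 and 60.8 CPM with FGF2 (2.49 ± 0.16). Rspo2, a ligand of Lgr5 that strengthens Wnt signals, had 28.6, 30.0 and 27.0 CPM with FGF2 plus OPN, against 2.5, 1.52 and 1.85 CPM with FGF2 (3.87 ± 0.15). Enhancers and antagonists of Wnt signalling thus both rose, and the groups did not overlap in these 3 genes. Receptors Fzd1 (1.78), Fzd2 (1.19) and Fzd8 (1.39) rose, and Dkk2 (-1.22) and Wnt5a (-0.88) fell.

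Of 24 BMP and GDF ligands and antagonists 10 rose, 5 fell and 9 did not pass (median 0.26). Bmp2, a ligand that drives bone and cartilage formation, had 22.1, 19.0 and 19.5 CPM with FGF2 plus OPN, against 248, 369 and 239 CPM with FGF2 (-3.82 ± 0.22). Bmp4 had 4.29, 3.46 and 5.81 CPM with FGF2 plus OPN, against 0.500, 0.297 and 0.545 CPM with FGF2 (3.32 ± 0.27), and Gdf10 had 28.4, 33.7 and 32.6 CPM with FGF2 plus OPN, against 0.500, 1.12 and 0.454 CPM with FGF2 (5.51 ± 0.22). The groups lay apart in all 3. The antagonists Grem1 (-1.25) and Fst (-1.65) fell, and Chrdl1 (2.84) and Chrd (1.88) rose. Among 14 TGF-beta and activin genes 7 rose and 2 fell. Tgfb2 had 49.8, 64.5 and 49.5 CPM with FGF2 plus OPN, against 3.77, 8.20 and 3.48 CPM with FGF2 (3.41 ± 0.22), and Inhba, the activin A chain, had 127, 123 and 140.3 CPM with FGF2 plus OPN, against 402, 415 and 414 CPM with FGF2 (-1.66 ± 0.10).

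EGF family ligands fell. Of 10 ligands and receptors, 6 fell and 3 rose (median -1.21), and the 6 were all ligands. Hbegf had 38.2, 35.9 and 47.6 CPM with FGF2 plus OPN, against 227, 181 and 235 CPM with FGF2 (-2.40 ± 0.10). Ereg, epiregulin, had 16.8, 15.5 and 13.7 CPM with FGF2 plus OPN, against 53.0, 43.5 and 52.9 CPM with FGF2 (-1.70 ± 0.15). The receptor Egfr had 92.2, 110.4 and 99.4 CPM with FGF2 plus OPN, against 39.2, 40.0 and 43.4 CPM with FGF2 (1.30 ± 0.084), the opposite direction to its ligands. In the IGF system, Igf1 and the protease Pappa, which frees it from binding proteins, rose: Pappa had 45.0, 55.1 and 58.0 CPM with FGF2 plus OPN, against 2.40, 2.71 and 2.57 CPM with FGF2 (4.36 ± 0.18). Of 18 angiogenic and PDGF genes 9 rose and 7 fell. Angpt1, a ligand that steadies vessels, had 29.6, 34.5 and 29.3 CPM with FGF2 plus OPN, against 4.07, 4.10 and 4.21 CPM with FGF2 (2.91 ± 0.13), hepatocyte growth factor Hgf (1.68), Vegfd (2.14) and Pdgfra (0.86) rose, and Vegfa (-0.40) and Pdgfa (-1.36) fell.

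Genes of the synovial sublining and of fibroblasts shared by many tissues were mostly higher, with 18 of 24 that rose and 2 that fell (median 1.63), while of 13 lining genes 5 rose and 5 fell. Ly6c1 had 119, 123 and 135 CPM with FGF2 plus OPN, against 18.8, 27.5 and 19.0 CPM with FGF2 (2.53 ± 0.12), and Ly6a, which has close paralogs as does Ly6c1, also rose (1.86). Cd34, a marker of progenitors, had 85.6, 76.5 and 83.9 CPM with FGF2 plus OPN, against 224, 319 and 227 CPM with FGF2 (-1.65 ± 0.20). The lining markers Pdpn (-1.44), Clic5 (-3.02) and the hyaluronan synthase Has1 (-1.72) fell, while Prg4, Vcam1 and Cd55 (0.79) rose. Pdpn, podoplanin, had 304, 299 and 310.3 CPM with FGF2 plus OPN, against 801, 874 and 811 CPM with FGF2. Has2, the other main synthase, had 58.2, 70.1 and 88.0 CPM with FGF2 plus OPN, against 30.6, 25.4 and 34.3 CPM with FGF2 (1.26 ± 0.13).

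Contractile genes moved in both directions: of 22 tested, 5 rose, or 3 without FGF2 plus OPN replicate 3 or in a fit on the 6 libraries alone, and 6 fell. Acta2, smooth muscle actin, had 291, 258 and 509 CPM with FGF2 plus OPN, against 290.4, 131 and 325 CPM with FGF2 and was not called (0.50 ± 0.29, edgeR adjusted p = 0.153). Among 12 adipogenic genes 8 rose and 3 fell. Lpl, lipoprotein lipase, had 38.1, 44.2 and 28.7 CPM with FGF2 plus OPN, against 5.43, 3.93 and 5.33 CPM with FGF2 (2.91 ± 0.18). Apoe, a lipid carrier, had 31.3, 29.4 and 25.7 CPM with FGF2 plus OPN, against 1.57, 2.28 and 1.85 CPM with FGF2 (3.92 ± 0.25). Pparg, the adipocyte regulator, fell (-0.90), while Lpl and Apoe rose. Of 12 Notch genes 6 rose and 4 fell, or 2 without FGF2 replicate 2: the targets Heyl (2.35) and Hey1 (2.20) and the receptor Notch3 (1.60) rose, and Hes1 (-1.09) fell. Of 28 axon guidance genes 15 rose and 10 fell, with Sema7a and Sema3a (-2.13) the largest falls and Robo2 (3.22) the largest rise.

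Lists of metabolic, stress and clock genes had medians from -0.04 (glycolysis and hypoxia) to 0.55 (clock), though single members changed by much more. Of 29 cholesterol and fatty acid genes 18 rose (median 0.33), led by Hmgcs1, HMG-CoA synthase, with 134, 135 and 137 CPM with FGF2 plus OPN, against 81.4, 64.9 and 81.1 CPM with FGF2 (0.84 ± 0.076). The falls numbered 5, with 8 without FGF2 replicate 2 and 2 without FGF2 plus OPN replicate 1, replicate 2 or FGF2 replicate 3 or in the fit on 6 libraries. Of 24 glycolysis and hypoxia genes 9 rose and 7 fell, or 12 without FGF2 plus OPN replicate 3. Pfkfb3, a switch that raises glycolytic flux, had 64.9, 70.0 and 73.1 CPM with FGF2 plus OPN, against 12.1, 13.8 and 15.0 CPM with FGF2 (2.34 ± 0.13). Of 22 integrated stress response genes 8 rose and 9 fell, or 4 in a fit on the 6 libraries alone. The serine synthesis enzyme Phgdh had 100.5, 70.4 and 105 CPM with FGF2 plus OPN, against 862, 703 and 937 CPM with FGF2 (-3.18 ± 0.13). Psat1, the next enzyme of that path, fell too (-1.15), while Ddit4 (1.5) and Cebpb (0.97) rose. Of 18 endoplasmic reticulum chaperones 10 rose and 2 fell, or 1 without FGF2 replicate 3 or in the fit on 6 libraries, with Herpud1 (1.29) and Hspa5, the chaperone BiP (0.58), among the rises. Of 17 clock genes 10 rose and none fell, or 1 without FGF2 plus OPN replicate 2, replicate 3 or FGF2 replicate 2: Nfil3 had 50.7, 58.5 and 61.8 CPM with FGF2 plus OPN, against 8.53, 7.67 and 7.995 CPM with FGF2 (2.82 ± 0.085), and Npas2 (2.76), Per2 (1.60) and Dbp (1.08) rose. Of 13 mitochondrially encoded genes 0 were called by edgeR, 0 had an unadjusted p below 0.05 and 0 were called by DESeq2, while 2 were lower when no filter on low counts was used.

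**Figure D4:**
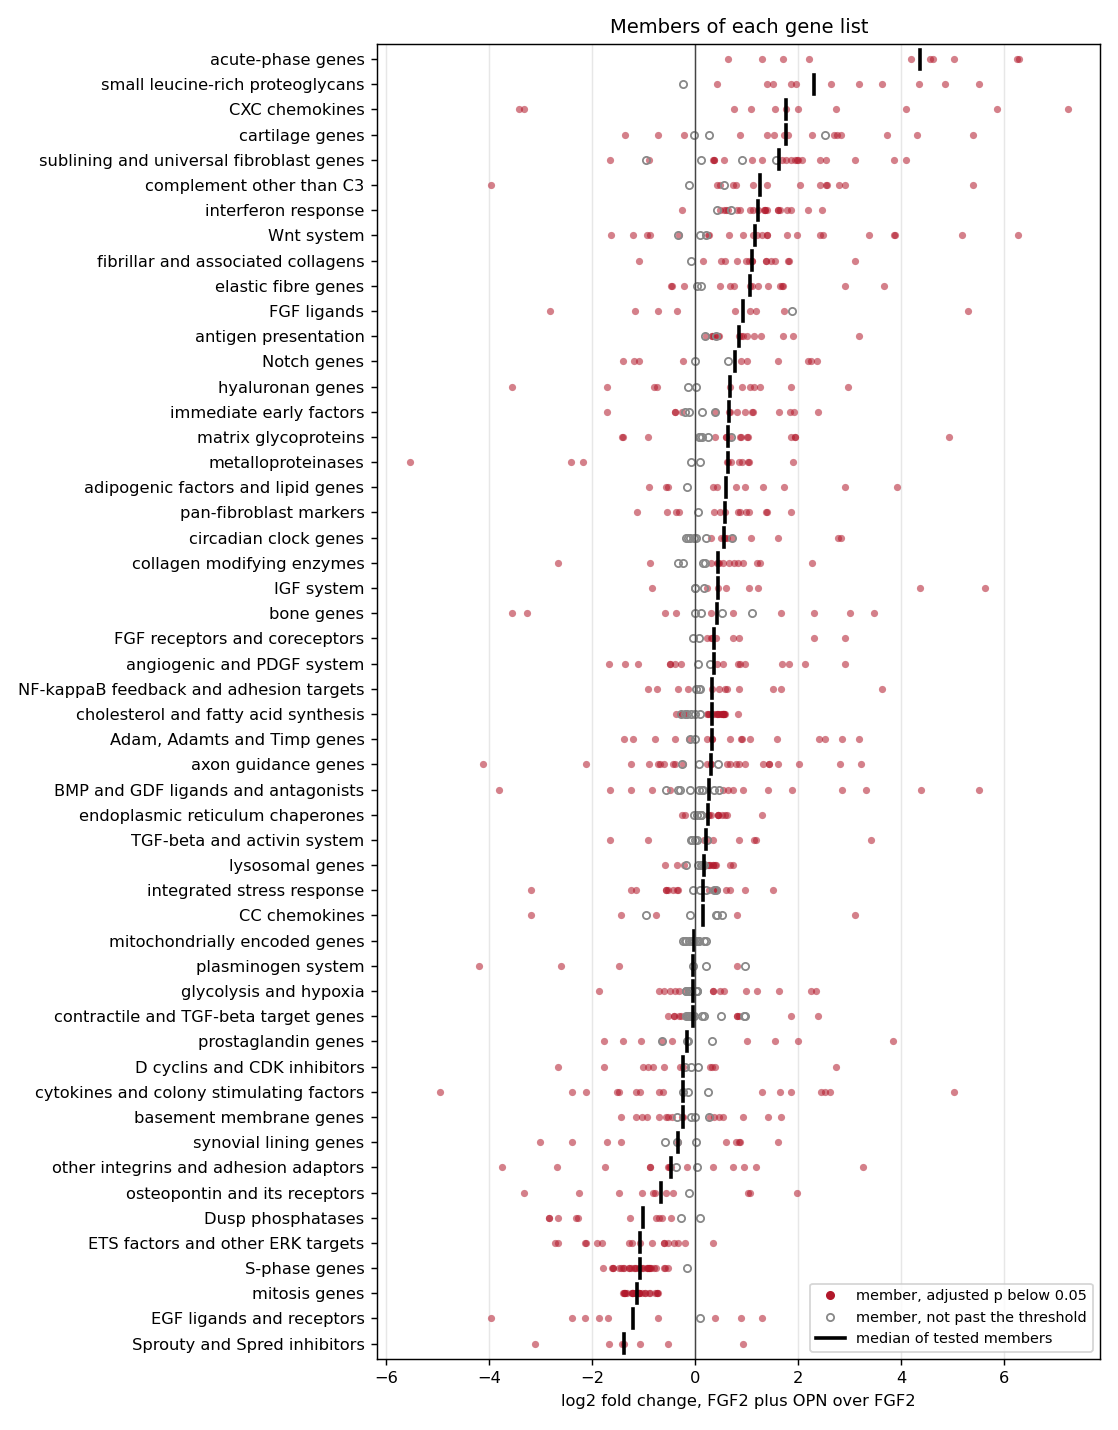
Log2 fold changes of FGF2 plus OPN over FGF2 for the members of 52 gene lists, ordered by the median of their tested members (black bar), with filled points for members past the threshold and open points for the others. Acute-phase genes and small leucine-rich proteoglycans stand at the top, and Sprouty and Spred inhibitors, EGF ligands and receptors and mitosis genes at the bottom.

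Markers of other cell types ranged from near 0 to 379.3 CPM in sum, and some differed between the groups. Over all 14 macrophage markers, 5 of which passed the filter, the summed level on plain library totals was 23.1 to 24.7 CPM with FGF2 plus OPN and 55.4 to 58.6 CPM with FGF2. Most of it was Cd14, a receptor for bacterial products, with 14.4, 14.4 and 14.7 CPM with FGF2 plus OPN, against 43.0, 47.2 and 41.2 CPM with FGF2 (-1.60 ± 0.11). Mrc1 fell (-3.02) and Csf1r rose (1.70), so the markers did not move one way. The 9 macrophage markers that were not tested, which include Ptprc, the marker of all leukocytes, and Adgre1, reached 0.145 CPM at most in any of the 6 libraries, and C1qa had no count. Neutrophil and lymphocyte markers summed to 0.826 to 1.16 CPM with FGF2 plus OPN and 1.77 to 2.94 CPM with FGF2, with 6 of 13 at 0 in all 6 libraries.

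Endothelial markers summed to 22.2 to 26.0 CPM with FGF2 plus OPN and 24.4 to 32.2 CPM with FGF2, of which Kdr, a VEGF receptor, had 0.603, 0.698 and 0.758 CPM with FGF2 plus OPN, against 8.23, 9.98 and 9.03 CPM with FGF2 (-3.73 ± 0.22), while Erg, an ETS factor, had 5.63, 8.41 and 8.75 CPM with FGF2 plus OPN, against 0.333, 0.264 and 0.363 CPM with FGF2 (4.54 ± 0.24). Pericyte and smooth muscle markers summed to 290.3 to 324.6 CPM with FGF2 plus OPN and 274.9 to 379.3 CPM with FGF2, with 6 of 9 tested higher and Cspg4 lower (-0.77). Abcc9, a channel subunit of pericytes, had 6.81, 9.81 and 7.58 CPM with FGF2 plus OPN, against 0.467, 0.397 and 0.212 CPM with FGF2 (4.49 ± 0.30). Schwann cell markers summed to 119.1 to 137.2 CPM with FGF2 plus OPN and 69.6 to 91.6 CPM with FGF2, with 5 of 9 higher, or 3 without FGF2 replicate 1; the highest was Ngfr, a neurotrophin receptor, with 50.1, 57.3 and 56.0 CPM with FGF2 plus OPN, against 25.7, 36.9 and 26.3 CPM with FGF2 (0.88 ± 0.13). Skeletal muscle markers stayed at 13.6 CPM or less and keratinocyte and erythroid markers at 4.07 CPM or less in sum in every library of both groups. The part of other cell types in the results above was not tested.

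Set beside unstimulated cells, some genes with both factors stood near the unstimulated level and others did not. These values share the FGF2 plus OPN libraries with the results above and are given side by side without a further test. Il1rn had 133, 169 and 166 CPM with FGF2 plus OPN, a range that holds the 136, 140.3 and 134 CPM of unstimulated cells. Unstimulated cells had 2212, 2504 and 2369 CPM of Comp and 9824, 7923 and 9366 CPM of Lox. These lay above the levels with FGF2 plus OPN given earlier, so both genes stood between the FGF2 and the unstimulated levels. Their log2 fold changes against unstimulated cells were -0.49 and -0.60. Other matrix genes differed: Col1a1 (-2.20) and Col12a1 (-2.64) stood farther below unstimulated cells, while Aspn (0.072) and Ogn (0.47) did not stand below them. Cxcl12, with 319, 305 and 291 CPM in unstimulated cells, was higher with FGF2 plus OPN than in any unstimulated library. Mmp3 had 20.3, 22.9 and 23.2 CPM and Tslp 0.221, 0.283 and 0.139 CPM in unstimulated cells, below every library with FGF2 plus OPN. Spry4, with 3.98, 3.44 and 4.13 CPM in unstimulated cells, and Dusp6, with 25.6, 24.8 and 28.1 CPM, also stood below every library with FGF2 plus OPN.

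Without FGF2, OPN changed fewer genes, and the direction of its effects showed little relation to that with FGF2. OPN against unstimulated naive cells gave 4783 called genes (31.7%), with 2291 higher (15.2%) and 2492 lower (16.5%), against 58.4% called in the presence of FGF2. The libraries of these comparisons are separate, so the effects can be set against each other. A test of the difference itself, the OPN effect with FGF2 minus the OPN effect without, called 7723 genes (51.2%), with 3627 more positive (24.1%) and 4096 more negative (27.2%) in the presence of FGF2. Genes called in both comparisons numbered 3123, which is 35.5% of those called with FGF2 and 65.3% of those called without. Of these, 1684 (53.9%) had opposite signs, not far from an even split. Among them 899 rose with FGF2 and fell without, and 785 fell with FGF2 and rose without. All 1684 were called for the difference, which adds no support, since genes called with opposite signs in the same fit nearly always are. A further 665 rose in both and 774 fell in both. Of 5681 genes called in the presence of FGF2 and not in its absence, 4130 were called for the difference and the rest were not shown to differ. Across the 15072 genes, which are not independent replicates, the log2 fold changes had a Pearson correlation of -0.087 and a Spearman correlation of -0.030.

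Among the 12 genes with the largest differences, those with a more positive effect in the presence of FGF2 included Cxcl5, a neutrophil chemokine, and those with a more negative effect included Mmp10 and Tslp. Cxcl5 had 36.4, 25.9 and 54.1 CPM with OPN, against 165, 148 and 151 CPM in unstimulated cells (-2.00 ± 0.26), where it had risen in the presence of FGF2, and the difference of the log2 effects was 7.85 ± 0.47. Chl1, an adhesion molecule of neurons, had 1.05, 0.850 and 2.91 CPM with OPN, against 5.90, 6.41 and 7.36 CPM in unstimulated cells (-2.09 ± 0.33), and 20.9, 22.5 and 28.6 CPM with FGF2 plus OPN, against 0.567, 0.958 and 0.424 CPM with FGF2 (5.21 ± 0.36), a difference of 7.30 ± 0.49. Gpr149, an orphan receptor, had 0.427, 0.0773 and 0.167 CPM with OPN, against 0.0316, 0.0354 and 0.0695 CPM in unstimulated cells, and 4.24, 2.66 and 2.94 CPM with FGF2 plus OPN, against 32.9, 42.0 and 30.4 CPM with FGF2 (-3.40 ± 0.21). For Cxcl5 and Chl1 the OPN effect thus had opposite signs with and without FGF2, while Gpr149 had few counts without FGF2. Ccnd1 rose with OPN in the absence of FGF2, to 259, 352 and 216 CPM, against 137, 138 and 139 CPM in unstimulated cells (1.00 ± 0.13), and the difference was -3.67 ± 0.18. Fgf2 likewise rose without FGF2 in the medium (0.93 ± 0.18) and fell with it, a difference of -1.66 ± 0.26.

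Among the gene lists, 30 of 31 S-phase genes, 28 of 28 mitosis genes and 10 of 10 acute-phase genes were called for the difference, beside 51.2% of all genes. Of 24 glycolysis and hypoxia genes 22 fell with OPN without FGF2 (median -0.69), and 20 were called for the difference. Of 15 NF-kappaB targets 12 fell without FGF2 (median -0.59), and 14 were called for the difference. Of 17 fibrillar and associated collagens 7 fell and 1 rose without FGF2 (median -0.21), and 16 were called for the difference. Other genes moved the same way in both. Thbs1 had 14250.1, 15205 and 15457 CPM with OPN, against 9173, 9072 and 8468 CPM in unstimulated cells (0.75 ± 0.24), beside a rise of 1.00 with FGF2, and the difference was 0.25 ± 0.33 (edgeR adjusted p = 0.569). Gdf10 had 8.29, 7.55 and 11.5 CPM with OPN, against 1.74, 1.67 and 1.67 CPM in unstimulated cells (2.42 ± 0.20), a rise that was larger with FGF2 by 3.09 ± 0.32 on the log2 scale.

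**Figure D5:**
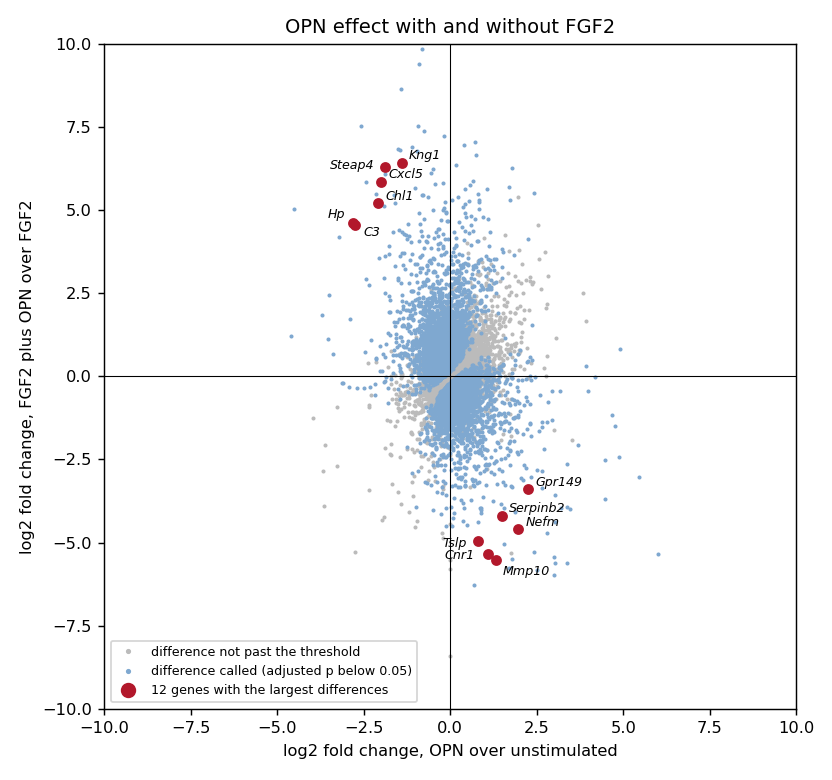
Each of the 15072 genes is a point, with the log2 fold change of OPN over unstimulated cells on the x axis and of FGF2 plus OPN over FGF2 on the y axis. Blue points are the 7723 genes called for the difference, grey points the others, and red points the 12 genes with the largest differences among those with a mean of at least 5 CPM over the 12 naive libraries. The cloud is spread farther along the y axis than along the x axis and shows no diagonal (Pearson -0.087).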

How the data were processed

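RNA-seq counts were compared between 3 libraries of naive paw synovial fibroblasts given FGF2 plus OPN and 3 given FGF2. Per the labels' protocols, paired-end reads were sequenced on a NovaSeq X Plus, and the submitters' processing notes name STAR, featureCounts and the builds GRCm38 and mm10. Neither gives tool versions or the strand setting of the counting. The authors deposited 1 table of whole-number counts per gene for 18 libraries, with no normalization. Of 32285 gene identifiers 32158 matched a symbol, and the 127 others held 0.0294% of counts. No 2 libraries of a group were identical.

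Genes were filtered with filterByExpr over 6 groups and tested with edgeR 4.0.16 (TMM library sizes, robust quasi-likelihood fit of all 18 libraries, 12 residual degrees of freedom) in R 4.3.3, with Benjamini-Hochberg adjustment over 15072 genes and a threshold of 0.05. The biological coefficient of variation was 7.99%. CPM values were computed from the deposited counts, and the SD of 3 libraries is not printed where all 3 values are. The fit was also run on simulated data in which only a small share of genes changed, unlike here. That run cannot show how the scaling of library sizes holds when most genes change. Genes named are the 12 largest rises and falls among called genes without overlap and with a mean of at least 5 CPM, the 8 largest gains and losses in mean CPM, the 6 largest differences of OPN effect each way, up to 3 called members of each gene list, OPN and FGF receptors, markers, and a set of fixed genes; some of these are not reported here. Other list members named beside them were chosen after their values were seen. The genes, lists and tests were all chosen with earlier results of these data known. Alternatives were other scalings, filters and tools (DESeq2 1.42.0, limma 3.58.1), a fit on 6 libraries, a replicate block, and leaving out each library. Promoters and their coordinates are from RefSeq (GRCm38.p6). Precision is limited by 3 libraries a group and, for genes near 1 CPM, by few reads in each.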

Additional observations from a re-analysis of the deposited data

Results flagged for a closer look

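The OPN effect differed between cells with and without FGF2 for 7723 of 15072 genes in a test of the difference itself. The genes printed here are those with the largest such differences among genes with a mean of at least 5 CPM over the 12 naive libraries, on the log2 scale and as the effect with FGF2 minus the effect without. The difference was 8.19 for Steap4, 7.85 for Cxcl5, 7.83 for Kng1, 7.43 for Hp, 7.31 for C3 and 7.30 for Chl1, and in all 6 the gene rose with OPN in the presence of FGF2 and fell with OPN in its absence. In the other direction the difference was -6.85 for Mmp10, -6.57 for Nefm, -6.43 for Cnr1, -5.77 for Tslp, -5.69 for Serpinb2 and -5.66 for Gpr149. Of these, Nefm rose with OPN without FGF2 (1.97), and the other 5 were not called there. Mmp10, Tslp, Serpinb2 and Gpr149 had few reads without FGF2, so the size of their differences depends on the prior count of the fit.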

How the results depend on the processing

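Alternatives gave between 6793 and 8836 called genes for FGF2 plus OPN against FGF2, beside 8804, and no gene called both in an alternative and in the fit reported had the other sign. The fit on the 6 libraries compared called 7493, library totals alone 8703, upper-quartile scaling 8755, DESeq2 8751, limma-voom 8836, no filter 8773 of 24146 genes, and a mean of at least 5 CPM 6793 of 10568 genes. With that last filter, which tests fewer genes, 661 genes rose and 506 fell at least 2-fold, beside 1512 and 1041. Leaving out 1 library gave 8025 to 8760 called genes, 3673 to 4121 higher, 4320 to 4706 lower, 1441 to 1573 at least 2-fold higher, 1001 to 1103 at least 2-fold lower, and 7104 to 7911 called for the difference of OPN effects, which other settings put between 6231 and 7789. Same-numbered libraries were not taken as pairs: of 45 correlations of their deviations from the group means, which ran from -0.104 to 0.199, 2 were above 0.1. A fit with the replicate number as a block called 8676 genes, 8622 of them shared, and all 6 libraries compared correlated best with their own number, as a hint from the data. Of 247 genes given with values, 236 stayed on the same side of the threshold in every setting. Fgfr1, which was not called, changed sign with library totals alone (0.012) and with upper-quartile scaling (0.025). In the fit on 6 libraries, 4 integrated stress response genes fell, beside 9, and 3 Adam, Adamts and Timp genes, beside 5; the cause was not tested. Genes under 1 CPM in a group, such as Steap4, Saa3, Lcn2 and Il6, rest on few reads there.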
